A study of Homo sapiens with 10 samples.

Results

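RCOR2-high regions at gene ends are stretches of the genome that the authors listed as RCOR2-high in Kelly cells and that overlap the 2 kb on either side of an end of a protein-coding gene. Of 31310 listed regions, 6673 were RCOR2-high, and 5342 of these lay at a gene end and are the members described here. They made up 80.1% of the RCOR2-high regions and 17.1% of all listed regions. By contrast 5356 RCOR2-low regions, 21.7% of that list, lay at a gene end. How the high and low classes were set is not stated in the labels, but by the name of the list the members were selected on RCOR2 binding. RCOR2 and RCOR1 values in the members are therefore given as a description and without a test. The bounds of 4985 members (93.3%) were exactly those of merged RCOR1 and induced FLAG-RCOR2 peaks.

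Kelly is an established line of adrenergic neuroblastoma with amplified MYCN. Chromatin immunoprecipitation followed by sequencing (ChIP-seq) gave 10 libraries in 5 groups of 2. The FLAG libraries came from a Kelly derivative titled Kelly_RCOR2-3xF, which by that name carries FLAG-tagged RCOR2. FLAG-RCOR2 was pulled down with a FLAG antibody from these cells given 2 µg/mL doxycycline. The same antibody was used in untreated cells of the derivative, called uninduced FLAG here. The RCOR1 and RCOR3 libraries are titled Kelly with no derivative named, and came from untreated cells, each with an antibody to the protein itself. Differences between FLAG and the other libraries therefore cannot be told apart from differences between the cells. The LSD1 libraries came from a further Kelly derivative with an inducible (dox-on) shRNA against RUNX1T1, which was not induced, so the protein and the derivative cannot be told apart for LSD1. The labels give a time of 48 h for all 10 libraries. They do not say whether replicates are separate cultures, and differences between replicates may be technical.

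RCOR1, RCOR2 and RCOR3 are the CoREST proteins, scaffolds that join the histone demethylase LSD1 (gene KDM1A) to the histone deacetylases HDAC1 and HDAC2. LSD1 removes methyl groups from lysine 4 of histone H3, a mark of active enhancers and promoters. The complex is brought to DNA by factors such as REST, GFI1 and INSM1. In neuroblastoma, LSD1 and CoREST proteins have been studied as partners of the adrenergic transcription factor network.

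The library lists held between 10253 and 75643 peaks, and the smallest was uninduced FLAG replicate 1. Each peak carries a fold, a ratio of enrichment that the authors' peak caller wrote. Where a region held several peaks in a library, the highest fold was taken. The read depth behind each fold is unknown, so folds of different libraries are set side by side without a test. Of the members, 3344 (62.6%) overlapped an uninduced FLAG peak in at least 1 library, and 1998 (37.4%) in neither. Shares of gene lists are given for the latter too.

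The members sat on promoters. A gene end lay inside 4873 of them (91.2%), and 129 (2.41%) were over 1000 bp from the nearest. The direction of transcription was known for 15812 of 19974 protein-coding genes. Among the 4527 members with an end of known direction, 4380 (96.8%) were at a start, and 147 were at a finish only. In RCOR2-low regions at gene ends the share at a start was 86.1% (3843 of 4463). At 562 members (12.8% of those at a start) the region met the 2 kb windows of starts on both strands. Whether these genes run head to head, as at a bidirectional promoter, was not checked. The share was not taken for other regions. In all, 6307 genes, 31.6% of the protein-coding genes, had a member at an end, and 5441 (27.2%) had an RCOR2-low region there. Both kinds stood at the ends of 1288 genes. Most members touched 1 gene (4108), 1148 touched 2 genes, and 7 touched 4 genes. Median width was 1336 bp, with quartiles of 1043 and 1730 bp, against 774 bp for RCOR2-low regions at gene ends.

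The promoter sequences of members are shown next, because the members stood apart from other gene ends in base composition. The sequences are the 200 bases upstream of the RefSeq gene start (GRCh38.p14), 5′ to 3′ on the gene's strand. Capitals mark each GGGCGG (the GC box, bound by SP and KLF factors) and each CACGTG (the E-box of MYC and MAX and of the TFE family), on either strand, and matches can overlap. The 5 sequences that follow are starts inside members from the 10 highest in induced fold, where the start in the table lies in the member.
ABI2, chr2:203328194-203328393, plus strand: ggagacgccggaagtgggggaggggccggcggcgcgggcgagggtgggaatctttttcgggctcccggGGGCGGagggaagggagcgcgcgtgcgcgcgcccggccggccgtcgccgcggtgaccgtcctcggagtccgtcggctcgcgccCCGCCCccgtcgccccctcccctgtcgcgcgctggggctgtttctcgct
RCOR3, chr1:211259166-211259365, plus strand: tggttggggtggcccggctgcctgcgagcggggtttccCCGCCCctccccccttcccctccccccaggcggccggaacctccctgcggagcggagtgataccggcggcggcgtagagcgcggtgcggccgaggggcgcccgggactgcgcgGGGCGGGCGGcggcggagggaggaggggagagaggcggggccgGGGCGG
LAMP1, chr13:113297039-113297238, plus strand: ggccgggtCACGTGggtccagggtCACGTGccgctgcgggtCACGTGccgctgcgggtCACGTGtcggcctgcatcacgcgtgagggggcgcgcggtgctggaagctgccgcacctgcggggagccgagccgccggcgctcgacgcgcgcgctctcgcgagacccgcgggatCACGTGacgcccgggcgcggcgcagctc
CHAMP1, chr13:114314303-114314502, plus strand: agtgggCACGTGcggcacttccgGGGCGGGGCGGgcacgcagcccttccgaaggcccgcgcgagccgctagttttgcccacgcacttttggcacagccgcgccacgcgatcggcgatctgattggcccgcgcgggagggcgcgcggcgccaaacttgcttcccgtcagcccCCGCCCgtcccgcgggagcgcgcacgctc
GXYLT1, chr12:42144875-42145074, minus strand: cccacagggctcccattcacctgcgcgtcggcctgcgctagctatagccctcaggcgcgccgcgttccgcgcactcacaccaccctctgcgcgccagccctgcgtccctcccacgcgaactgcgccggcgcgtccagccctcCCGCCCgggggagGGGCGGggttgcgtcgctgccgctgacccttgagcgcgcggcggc

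These stretches held between 27 (RCOR3) and 36 (LAMP1) CpG dinucleotides. RCOR3 had 4 GC boxes, CHAMP1 had 3, and ABI2 and GXYLT1 had 2 each. LAMP1, a lysosomal membrane protein, had no GC box and 5 E-boxes, and CHAMP1 had 1 E-box beside its GC boxes. Of the members that held a peak in every library, 3 more starts are printed. PPIA (cyclophilin A) is a housekeeping gene, HES1 is a Notch target and repressor, and NUCKS1 carried the highest LSD1 folds.
PPIA, chr7:44796481-44796680, plus strand: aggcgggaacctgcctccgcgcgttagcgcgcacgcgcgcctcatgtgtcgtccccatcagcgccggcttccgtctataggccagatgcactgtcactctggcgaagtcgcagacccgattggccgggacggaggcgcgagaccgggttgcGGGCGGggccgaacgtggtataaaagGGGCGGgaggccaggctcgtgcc
HES1, chr3:194135948-194136147, plus strand: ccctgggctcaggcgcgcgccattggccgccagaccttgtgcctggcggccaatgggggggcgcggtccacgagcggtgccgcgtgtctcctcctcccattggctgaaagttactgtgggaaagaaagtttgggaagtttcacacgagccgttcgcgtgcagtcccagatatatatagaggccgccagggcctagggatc
NUCKS1, chr1:205750183-205750382, minus strand: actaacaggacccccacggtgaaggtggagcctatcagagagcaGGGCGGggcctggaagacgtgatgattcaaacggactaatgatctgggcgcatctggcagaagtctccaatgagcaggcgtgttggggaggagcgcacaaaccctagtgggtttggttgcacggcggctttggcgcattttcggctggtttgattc

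PPIA had 27 CpG and 2 GC boxes, HES1 had 16 CpG and 3 CCAAT boxes, and NUCKS1 had 11 CpG and 1 GC box. For contrast, a pair of gene starts in neither class is shown from the lists of genes of other tissues, chosen after their values were seen. ALB encodes serum albumin and KRT5 a basal keratin, with 2 and 5 CpG.
ALB, chr4:73404087-73404286, plus strand: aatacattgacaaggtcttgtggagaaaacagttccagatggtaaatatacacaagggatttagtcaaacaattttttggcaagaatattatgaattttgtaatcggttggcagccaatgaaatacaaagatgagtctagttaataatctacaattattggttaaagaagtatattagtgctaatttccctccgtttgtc
KRT5, chr12:52520395-52520594, minus strand: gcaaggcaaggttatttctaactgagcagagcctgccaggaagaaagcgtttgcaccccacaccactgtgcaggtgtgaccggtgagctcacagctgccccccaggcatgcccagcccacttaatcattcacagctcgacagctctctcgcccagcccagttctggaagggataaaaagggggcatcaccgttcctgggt

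Over all 15812 promoters in the table (300 bases, 250 before the start and 50 after), 4695 starts lay in an RCOR2-high region, 2994 in an RCOR2-low region and 8123 in neither. Of the starts in RCOR2-high regions 4500 lay in members, and the rest lay over 2 kb from any outer end of a gene in the gene table. The median promoter with its start in an RCOR2-high region held 32 CpG, against 22 in RCOR2-low regions, 10 in neither and 22 over all promoters. Median GC content was 70%, 61.3% and 57.3% in the same order. A GC box was found in 82.6% of the RCOR2-high promoters, 64.0% of the RCOR2-low promoters and 58.5% of all. The ETS core (CCGGAAG) went the other way between the classes, since 18.1% of the RCOR2-high promoters had it against 26.5% of the RCOR2-low and 14.2% of all. The CCAAT box (CCAAT) had shares of 33.1% for RCOR2-high, 42.8% for RCOR2-low and 36.3% for all promoters. The TATA box (TATAAA) was found in 3.79% of RCOR2-high promoters and 9.64% of all. For the E-box the shares were 12.2% (RCOR2-high), 10.3% (RCOR2-low) and 8.87% (all promoters). The 300-base windows were searched on both strands, and a match is a description of the letters only.

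With all promoters divided by CpG number into 5 groups of equal size, the share of starts in RCOR2-high regions went from 0.537% in the lowest group through 9.42%, 28.1% and 49.1% to 61.3% in the highest. RCOR2-low regions had their highest share, 38.7%, in the middle group and 9.29% in the highest. Within a group the GC box differed less between the classes. With 26 to 34 CpG it stood in 83.6% of RCOR2-high promoters, 77.1% of RCOR2-low promoters and 85.0% of the others. The ETS core stood in 19.3% of RCOR2-high, 30.3% of RCOR2-low and 15.2% of the other promoters at that CpG number. In the highest group, which holds 1939 of the 4695 RCOR2-high starts, it did not go that way, with 18.4% for RCOR2-high, 17.3% for RCOR2-low and 11.7% for the others. Among starts in members, LSD1 peaks went with fewer CpG. From the second to the highest group, LSD1 replicate 1 had a peak at 21.4%, 11.2%, 8.2% and 5.73% of the starts, and LSD1 replicate 2 at 8.19%, 5.91%, 4.10% and 3.10%. RCOR3 replicate 1 went from 51.6% to 24.0% over the same groups and RCOR3 replicate 2 from 56.6% to 50.9%. The lowest group held 16 such starts and is left out.

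**Figure D1:**
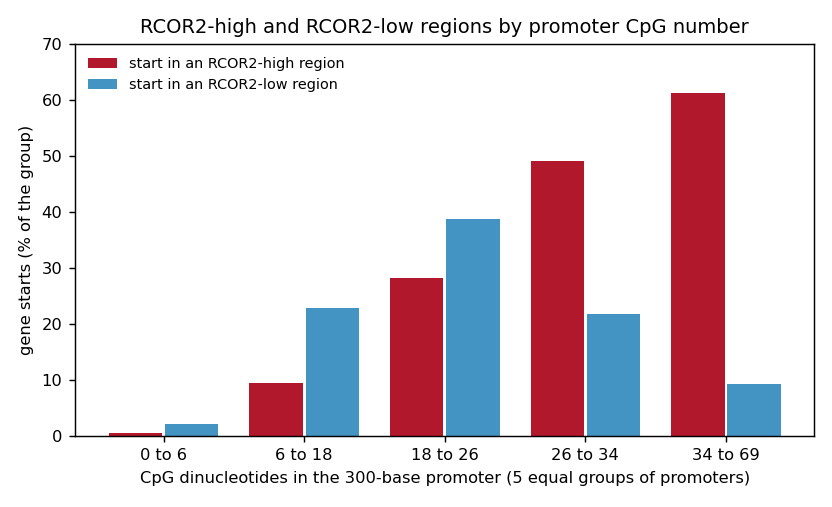
Share of gene starts (y axis, % of the group) in RCOR2-high regions (red) and RCOR2-low regions (blue) for 5 equal groups of 15812 RefSeq promoters by the number of CpG dinucleotides in 300 bases (x axis, lowest to highest number). RCOR2-high regions took 0.537% of starts in the lowest group and 61.3% in the highest, and the RCOR2-low share peaked in the middle group at 38.7%.

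By construction nearly every member had an RCOR2 peak. Induced FLAG-RCOR2 peaks were listed in 5339 members (99.9%) in replicate 1 and 5336 in replicate 2, where 56.3% and 54.8% of all listed regions had one. The highest fold had a median of 19.4 in replicate 1 and 40.7 in replicate 2, with ranges of 4.13 to 103.1 and 8.36 to 131.2. In RCOR2-low regions at gene ends these medians were 9.40 and 12.2. The mean of the 2 member medians was 30.0 ± 15.1 (SD, n = 2), so the scale of the fold differed between the libraries by more than many members differed within one. Ranks of the members were only loosely shared by the replicates, with a Spearman correlation of 0.39 over 5336 members that come from the same 2 libraries. The pair of summits of a member lay a median of 75 bp apart.

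RCOR1 peaks were listed in 91.1% of members in replicate 1 and in 70.3% in replicate 2, where all listed regions had 91.6% and 40.4%. The RCOR1 share in replicate 1 was thus at the background of all listed regions, which were built in part from RCOR1 peaks. Peaks of both RCOR1 libraries were in 3559 members (66.6%), where 39.0% of all listed regions had them. Median RCOR1 folds in the members were 6.37 and 5.78.

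RCOR3 and LSD1 peaks were not needed to give the bounds of the 4985 members that match merged RCOR1 and induced peaks, and whether they entered the bounds of the other members or the choice of class is not known. RCOR3 peaks were listed in 35.0% of members in replicate 1 (Wilson 95% interval 33.7 to 36.3%) and in 51.3% in replicate 2 (49.97 to 52.6%), where 34.5% and 33.7% of all listed regions had one. LSD1 peaks were listed in 8.14% (7.44 to 8.91%) and 4.10% (3.60 to 4.67%) of members, where 39.1% and 37.7% of all listed regions had one. Both LSD1 libraries thus lay far below their background in the members, RCOR3 replicate 1 lay at it, and RCOR3 replicate 2 lay above it. The mean LSD1 share was 37.0 percentage points below the mean RCOR3 share, and the groups did not overlap. The exact permutation test over the libraries (two-sided, 2 against 2) gave p = 0.333, the smallest it allows, so this design cannot reach 0.05. The intervals cover counting error over regions only.

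The LSD1 shares of members were also below those of RCOR2-low regions at gene ends, with differences of -12.6 percentage points in replicate 1 and -8.41 in replicate 2. The mean difference was -10.5 ± 2.99 percentage points (SD, n = 2; exact sign-flip test, p = 0.5, the smallest that 2 libraries allow). There the LSD1 shares were 20.8% and 12.5%, and in RCOR2-low regions away from gene ends they were 54.7% and 56.1%. Against RCOR2-high regions away from gene ends, with 11.9% and 8.72%, the mean difference was -4.17 ± 0.628 percentage points (SD, n = 2; exact sign-flip test, p = 0.5). For RCOR3 the difference from RCOR2-low regions at gene ends was 5.30 percentage points in replicate 1 and 26.5 in replicate 2. Its mean was 15.9 ± 15.0 (SD, n = 2; exact sign-flip test, p = 0.5), so the spread between the libraries was nearly as large as the mean. Among regions with no uninduced FLAG peak, RCOR3 replicate 1 turned to -2.50 percentage points and replicate 2 stayed at 19.0. The RCOR3 share differed from that of RCOR2-high regions away from gene ends by a mean of -2.35 ± 0.559 percentage points (SD, n = 2; exact sign-flip test, p = 0.5).

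LSD1 peaks in the members had low folds. The median was 3.11 and 3.99 in the 2 libraries, against 4.21 and 5.35 in RCOR2-low regions at gene ends and 6.45 and 7.10 in RCOR2-low regions away from gene ends. Over all LSD1 peaks the library medians were 5.52 and 5.81. RCOR3 folds in the members had medians of 4.78 and 5.44.

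The FLAG antibody gave peaks in members also where no doxycycline was added. Uninduced FLAG peaks were listed in 53.8% (52.5 to 55.2%) of members in replicate 1 and 28.1% (26.9 to 29.3%) in replicate 2, where 14.7% and 9.49% of all listed regions had one. These shares exceeded those of RCOR2-low regions at gene ends (13.9% and 9.02%) by a mean of 29.5 ± 14.8 percentage points (SD, n = 2; exact sign-flip test, p = 0.5). The classes are named for RCOR2, which the same antibody read in the same derivative. The direction may therefore follow from the selection, and the test cannot tell. The difference from RCOR2-high regions away from gene ends was 3.60 ± 3.37 percentage points (SD, n = 2; exact sign-flip test, p = 0.5). Peaks of both uninduced libraries were in 1034 members (19.4%), where 4.67% of all listed regions had them. Both induced folds exceeded both uninduced folds in all 1034. This is a description only, since the members were selected on RCOR2 binding and the depth behind each fold is unknown. In those members the lower induced fold had a median of 23.6 and the higher uninduced fold one of 5.83. Whether these peaks are background of the antibody or of open chromatin, or tagged RCOR2 made without doxycycline, was not tested.

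**Figure D2:**
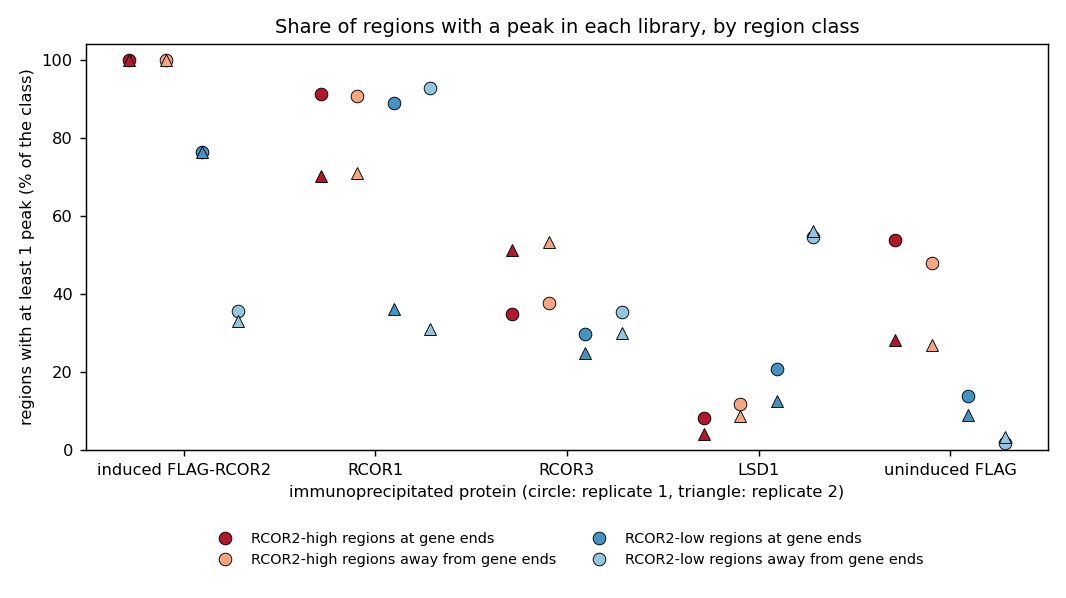
Share of regions with at least 1 peak (y axis, % of the class) in each of the 10 libraries (x axis, by protein, with circles for replicate 1 and triangles for replicate 2) in 4 region classes. In members (dark red) the LSD1 libraries lie at 8.14% and 4.10% and the uninduced FLAG libraries at 53.8% and 28.1%, the reverse of RCOR2-low regions away from gene ends (light blue).

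**Figure D3:**
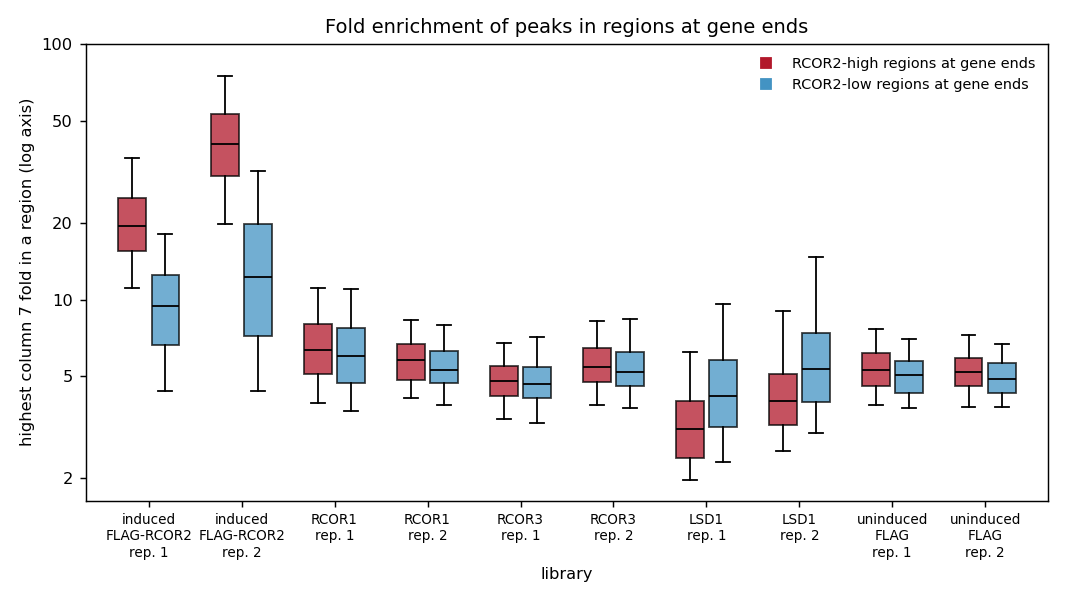
Highest fold per region (y axis, log scale) in each library (x axis) for members (red) and RCOR2-low regions at gene ends (blue) that hold a peak there, with boxes from the lower to the upper quartile, the median as a line and whiskers at the 5th and 95th percentiles. The member medians are 19.4 and 40.7 for induced FLAG-RCOR2, and for LSD1 3.11 and 3.99, below the 4.21 and 5.35 of the RCOR2-low regions.

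Members with the highest induced folds were shared most. When the members were ordered by the mean of their ranks in the 2 induced libraries and split into 4 equal groups, 54.3% of the lowest group and 87.8% of the highest had an RCOR1 replicate 2 peak. RCOR3 replicate 2 went from 36.5% to 69.7% and RCOR3 replicate 1 only from 33.7% to 39.96%. LSD1 replicate 1 took 8.02% of the lowest and 10.04% of the highest group, and LSD1 replicate 2 took 3.15% and 4.95%. The uninduced FLAG share went along, from 37.8% to 74.5% in replicate 1 and from 17.9% to 41.2% in replicate 2. Regions widened too, from a median of 1239.5 bp to 1479.5 bp, and a wider region has more room for a peak. The part of width and of uninduced signal in this order was not tested.

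Members differed in how many libraries they shared. The median was 5 libraries, 2260 members (42.3%) had a peak in 5 or 6, and 30 had one in all 10. These numbers and the patterns below were counted in the members only. Whether they differ from those of other listed regions was therefore not tested. A protein was counted as present where both its libraries had a peak. Leaving out members with peaks of both uninduced FLAG libraries, 1882 members (35.2%) had RCOR2 with RCOR1 only. By the same count 1487 (27.8%) had RCOR2 only, and 705 (13.2%) had RCOR2, RCOR1 and RCOR3 without LSD1. Members with both uninduced FLAG peaks added 437, 157 and 376 to these patterns. An RCOR1 peak was missing from both libraries in 280 members (5.24%). The share was 5.48% in RCOR2-high regions away from gene ends. In RCOR2-low regions it was 10.3% at gene ends and 6.73% away from them. All 4 proteins were present at 110 members, with or without uninduced FLAG peaks. Of the 1311 members with RCOR3 in both libraries (24.5%, where 21.5% of all listed regions had them), 1191 (90.8%) had RCOR1 too. Of all members 66.6% had RCOR1 in both libraries.

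LSD1 in both libraries marked 173 members (3.24%, where 32.3% of all listed regions had them). Of these, 159 (91.9%) had RCOR1 and 111 (64.2%) had RCOR3 in both libraries. Among the 4861 members with no LSD1 peak 64.6% had RCOR1 and 21.5% had RCOR3 in both. The 173 were wider, with a median of 1608 bp against 1319 bp, and their median RCOR1 replicate 1 fold was 9.55 against 6.28. Their induced folds had medians of 21.7 and 40.9, against 19.4 and 40.9. The median promoter with its start in one of these members held 29 CpG, and 75.9% of these promoters had a GC box.

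Summits of the proteins did not all lie at the same place. In members with a single gene start, the induced FLAG-RCOR2 summit lay at a median of 31 bp downstream of the start in replicate 1 and at -28 bp (upstream) in replicate 2. RCOR1 summits lay at -115 and -66 bp and RCOR3 summits at -103 and -64 bp. LSD1 summits, from 308 and 154 members, lay farther upstream at -231 and -373 bp. The induced summits came from 3714 and 3712 members. Positions were not compared in the same members, so the part of the choice of members was not tested. Within 250 bp of the start lay 64.8% and 73.4% of the induced summits, and 37.7% and 11.04% of the LSD1 summits. LSD1 replicate 2 summits were spread widely, with quartiles of -671 and 264 bp. Uninduced FLAG summits lay at -15 and 108.5 bp. Within a member, the median distance from an induced summit was 100 to 213 bp for RCOR1 and 341 to 545 bp for LSD1 over the pairs of libraries. Each pair was measured in the members that held both of its peaks, so these sets differ too.

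**Figure D4:**
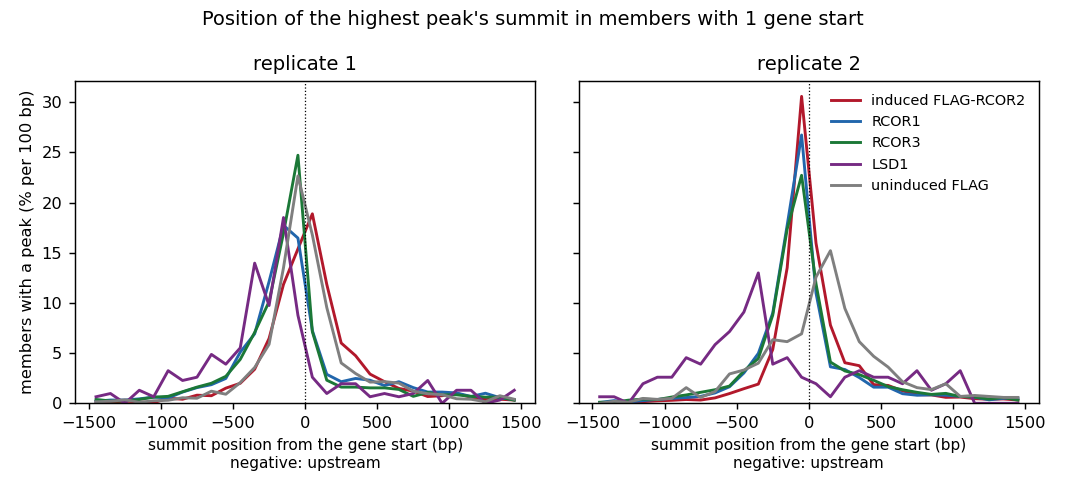
Position of the summit of the highest peak relative to the gene start (x axis, bp, negative upstream) as the share of members with a peak and 1 gene start (y axis, % per 100 bp), for replicate 1 (left) and replicate 2 (right) of each protein. The induced FLAG-RCOR2 curves centre within 31 bp of the start by their medians, and the LSD1 curves lie upstream, with medians of -231 and -373 bp.

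The 10 members highest in induced fold are a mixed set by function. The RCOR3 promoter (chr1:211257917-211261088, 3172 bp) is among them, so the gene of 1 of the CoREST proteins carried one of the highest RCOR2 folds. Its induced folds were 78.6 and 96.5, its RCOR1 folds 12.9 and 6.20, its RCOR3 folds 6.14 and 7.32 and its uninduced FLAG folds 5.88 and 10.3, and it had no LSD1 peak. The promoter of PUM2 (chr2:20349938-20351890), an RNA-binding repressor of translation, had induced folds of 68.2 and 101.9 and RCOR3 folds of 4.40 and 10.9. TMEM250 (chr9:136117403-136120131) reached 64.1 and 108.4, and LOC124900276 (chr9:136727562-136729210) reached 73.0 and 109.0. ABI2 (chr2:203327912-203329388), which acts in actin remodelling, had 62.5 and 97.3, and a peak of RCOR3 replicate 1 only.

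LAMP1 (chr13:113296468-113297666), with the 5 E-boxes above, had 51.4 and 97.6, RCOR1 folds of 5.70 and 4.85 and no RCOR3 peak. PEX5 (chr12:7189347-7190593), the receptor for import into peroxisomes, had 50.3 and 102.1. CHAMP1 (chr13:114313950-114314978), a kinetochore protein, had 49.8 and 96.2. GXYLT1 (chr12:42144030-42145260) had 51.4 and 92.5. The region at ANAPC2, a subunit of the anaphase-promoting complex, and SSNA1 (chr9:137188174-137189569) had 46.5 and 122.3. None of the 10 had an LSD1 peak in either library, as was so for 4861 (91.0%) of all members, and each had an uninduced FLAG peak in at least 1.

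At the other extreme stood 4 members in the lowest ranks. The region at GPS2 and NEURL4 (chr17:7314778-7315736) had induced folds of 5.97 and 34.0, and that at PPP1CA and TBC1D10C (chr11:67401268-67402119) had 5.97 and 52.1, so the libraries placed both apart. The region at GTPBP4 and LARP4B (chr10:987871-988888) had 13.6 and 8.36. The finish of TBX4 (chr17:61485901-61488093), a T-box factor, had induced folds of 13.2 and 8.64 but RCOR1 folds of 19.5 and 11.995, RCOR3 folds of 10.5 and 16.2 and LSD1 folds of 4.51 and 7.30. It had no uninduced FLAG peak. Another 6 members, all under 300 bp wide, lacked an induced peak in at least 1 library. Among them are regions at SPEN (a fold of 4.13 in induced replicate 1 and 4.97 in RCOR1 replicate 1), SUMO2 (4.59 in induced replicate 1) and YEATS2 (4.66 in RCOR1 replicate 1), and at the start of HEXD and OGFOD3 (3.68 in RCOR1 replicate 1).

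The regions nearest the 2 kb limit are given for both sides of it. Just inside, RNF207 lay 1998 bp from its region, with induced folds of 26.0 and 33.6, and NPW lay at 1996 bp with 8.80 and 31.4. C17orf58 at 1977 bp had 16.5 and 33.4, and GCFC2 at 1968 bp had 29.3 and 64.9. Just outside lay EEF1A2 at 2023 bp with 29.5 and 15.7, PHYHIPL at 2027 bp with 31.5 and 71.2, GPRC5C at 2040 bp with 33.1 and 71.6 and SYNPO at 2045 bp with 23.8 and 42.0.

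Some members were bound in every library. Of the 30 with a peak in all 10, PPIA (chr7:44795197-44797730) ranked highest, with induced folds of 103.1 and 78.5, and had weak LSD1 folds of 2.40 and 2.99. IGF2BP3 (chr7:23470247-23471834), an RNA-binding protein of fetal tissue and tumours, had 64.5 and 74.7, with LSD1 folds of 3.30 and 2.89. HES1 (chr3:194133745-194138260), whose region meets the windows of both gene ends, had induced folds of 67.7 and 69.7, RCOR1 folds of 26.4 and 13.1, RCOR3 folds of 12.1 and 14.2 and LSD1 folds of 7.68 and 4.64. SLC6A2 (chr16:55655115-55656988) encodes the noradrenaline transporter, a defining gene of the adrenergic lineage. It had induced folds of 49.3 and 63.3, RCOR1 folds of 13.1 and 9.51, RCOR3 folds of 6.58 and 11.2, LSD1 folds of 2.97 and 2.74 and uninduced FLAG folds of 4.28 and 3.82. BSG, PLXNA1 and MAGI3 belonged to the same group, as did the regions at LAMTOR2 and UBQLN4 and at BCAT2 and HSD17B14.

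The highest LSD1 folds among the members were at NUCKS1 (chr1:205748799-205751317), a nuclear DNA-binding protein, with 15.5 and 19.7. Its induced folds were 44.9 and 70.4, its RCOR1 folds 18.8 and 10.7 and its RCOR3 folds 6.11 and 5.34. NR6A1 (chr9:124770540-124772428), an orphan nuclear receptor, had LSD1 folds of 12.4 and 16.8 with induced folds of 19.9 and 47.8. PWWP2A (chr5:160118434-160120207) had LSD1 folds of 13.3 and 9.74 with low induced folds of 14.2 and 25.7. SHD (chr19:4276264-4280583) had LSD1 folds of 8.89 and 9.76 and RCOR1 folds of 24.5 and 8.93. RFX1, ITGAV and SGSM1 had LSD1 folds between 7.49 and 9.96. NR6A1, SHD and SGSM1 had no uninduced FLAG peak.

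Gene lists were then set against the 31.6% of all protein-coding genes that had a member. They hold 769 genes, of which 767 were found by symbol and 263 had a member. By their shares alone, 16 of 25 lists were above the share of all genes. The Wilson interval of the list lay wholly above that share for 5 lists and wholly below it for 4. The 5 were splicing factors, p53 targets, immediate early genes, LSD1-CoREST genes and translation factors. The 4 were antigen presentation and interferon, replication-dependent histones, liver genes and keratinocyte genes. The intervals of all other lists covered the share of all genes, so those lists are not set apart from it. Counts are a description of each list, and genes that share a region share its values. Restricted to members with no uninduced FLAG peak, 11.9% of all genes had a member, and several lists above the share of all genes were not above this one.

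The LSD1-CoREST list holds subunits of the complex and also recruiting factors and cofactors, and 13 of its 23 genes (56.5%) had a member. Beside RCOR3 these included RCOR1 (induced folds 24.9 and 30.3), KDM1A (24.9 and 74.4), HDAC1 (19.9 and 55.3) and HDAC2 (33.5 and 57.6). HMG20B (17.7 and 29.2) and ZMYM2 (26.0 and 30.3), further subunits, had lower values. The recruiting factors REST (15.4 and 27.1), SNAI1 (27.1 and 64.9) and GFI1B (22.3 and 73.2, on a region shared with TSC1) and the cofactors CTBP2 (30.4 and 33.5) and CBFA2T2 (19.9 and 40.9) were members too. RCOR2, PHF21A, ZMYM3, GSE1, CTBP1, GFI1, INSM1, SNAI2, RUNX1T1 and CBFA2T3 had no member. Of the 13 regions 8 had RCOR1 and 3 had RCOR3 in both libraries, near the 66.6% and 24.5% of all members. GFI1B alone had LSD1 in both libraries, with folds of 4.82 and 4.16, where 3.24% of all members had it. The KDM1A promoter itself (chr1:23019092-23020071) had RCOR1 folds of 8.72 and 7.35, RCOR3 in replicate 2 only and no LSD1 peak. In members with no uninduced FLAG peak the list held 21.7% of its genes.

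Of the adrenergic core regulators, the transcription factors that hold neuroblastoma cells in their noradrenergic state, 11 of 22 (50%) had a member. TBX2 (chr17:61410147-61413466) led with induced folds of 43.1 and 79.2. PHOX2A (chr11:72243607-72244911) had 30.3 and 53.2, RCOR1 folds of 12.8 and 7.27 and RCOR3 folds of 7.27 and 7.47. GATA2 (chr3:128485786-128491300) had 30.7 and 47.2, and SOX11 had 27.7 and 52.1. KLF13 (21.6 and 51.6), ZNF536 (18.3 and 50.5) and MEIS2 (38.2 and 35.6) followed. INSM2 (17.7 and 28.2), ISL1 (23.2 and 22.3) and DACH1 (11.9 and 19.1) were low in at least 1 library. Genes of the list without a member include HAND1, HAND2, GATA3, MYCN, SOX4, TFAP2B, KLF7, EYA1, SIX3 and SATB1. In members with no uninduced FLAG peak the list held 18.2% of its genes.

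Of the noradrenergic genes 7 of 14 (50%) had a member. Beside SLC6A2 they include CHGB (36.5 and 52.4), a protein of secretory granules, and the receptor kinases RET (17.7 and 45.7) and ALK (15.8 and 58.4). Of the 7 regions 3 overlapped an uninduced FLAG peak, where 62.6% of all members did, and 28.6% of the list had a member with none. REST target neuronal genes were at the share of all genes, with 8 of 25 (32.0%), among them STMN3 (34.6 and 50.5), STMN2 (22.3 and 47.8) and GRIN1 (21.2 and 39.3). None of the 8 had an LSD1 peak, nor had 91.0% of all members. Their share in members with no uninduced FLAG peak was 24.0%, where all genes had 11.9%.

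Genes that respond quickly to signals or stress were often members. An uninduced FLAG peak overlapped 10 of 14 regions of p53 targets and 12 of 15 of immediate early genes, where 62.6% of all members had one. With members that lack such a peak, the p53 targets went from 70% to 20%. The immediate early genes went from 65.2% to 13.0% (3 of 23), and all genes from 31.6% to 11.9%. Of the p53 targets 14 of 20 (70%) were, with MDM2 (34.3 and 88.8), which turns p53 over, SESN1 (42.9 and 58.0), BTG2 (22.9 and 50.9) and PPM1D (24.4 and 46.4). LSD1 had a peak in at least 1 library at 4 of the 14, where 91.0% of all members had none. SESN1 and PPM1D were among the 4, with a peak in LSD1 replicate 1 only, at folds of 3.18 and 3.66. Of the immediate early genes 15 of 23 (65.2%) were, with DUSP1 (27.2 and 65.9), JUND (23.8 and 82.4), MCL1 (29.5 and 46.0) and EGR1 (25.7 and 46.0). EGR2, EGR3, IER3, ATF3, NR4A2, KLF2, KLF4 and ZFP36 were not.

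Lists of general cell functions spread from above to below the share of all genes. Splicing factors had 20 of 30 genes with a member (66.7%), led by HNRNPU (34.1 and 72.3), HNRNPL (33.2 and 78.1), SRSF4 (27.4 and 68.6) and HNRNPR, which had peaks in all 10 libraries (33.2 and 56.4). Cholesterol synthesis had 12 of 24 (50%), with SQLE (29.9 and 89.3), SREBF2 (27.5 and 48.9) and LSS (22.1 and 100.5). None of the 12 had an LSD1 peak, nor had 91.0% of all members. Translation factors had 17 of 36 (47.2%), ribosome biogenesis 14 of 30 (46.7%) and the cell cycle 14 of 31 (45.2%), the last with CDC25C (36.5 and 52.6), FOXM1 (27.1 and 52.6), BIRC5 (29.3 and 52.5) and E2F3 (26.1 and 49.4). Chaperones had 10 of 25 (40%), of which HSPD1 and HSPE1 share a start region (33.7 and 57.9). DNA replication had 13 of 34 (38.2%), led by POLE (49.8 and 86.7). Mitochondrial ribosomal proteins had 22 of 60 (36.7%), proteasome subunits 11 of 32 (34.4%), and RNA polymerase II and Mediator 14 of 42 (33.3%). With members that lack an uninduced FLAG peak, DNA replication had 26.5%, RNA polymerase II and Mediator 14.3% and splicing factors 13.3% (4 of 30), where all genes had 11.9%. Below that share were translation factors (11.1%), the cell cycle (9.68%), cholesterol synthesis (8.33%), chaperones (8%), ribosome biogenesis (6.67%), proteasome subunits (6.25%) and mitochondrial ribosomal proteins (3.33%).

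Below the share of all genes stood cytosolic ribosomal proteins with 17 of 66 (25.8%), of which RPL6 ranked highest (27.1 and 69.1). Of their 66 genes 47 had an RCOR2-low region, where 27.2% of all protein-coding genes had one. Oxidative phosphorylation had 11 of 44 (25%), and each of its 11 regions overlapped an uninduced FLAG peak, where 62.6% of all members did. Aminoacyl-tRNA synthetases had 5 of 20 (25%), with GARS1 (58.3 and 70.9) first. Mesenchymal-state genes had 6 of 25 (24.0%), among them FOSL2 (19.9 and 62.4), which had LSD1 in both libraries (3.22 and 5.06), and TWIST1 (19.5 and 39.2). HOX genes had 7 of 39 (17.9%) on 4 regions, with HOXC4, HOXC5 and HOXC6 on 1 region of 78.6 and 62.7. Antigen presentation and interferon had 3 of 24 (12.5%), among them CIITA (21.0 and 65.4) and IRF1 (18.7 and 50.2). With members that lack an uninduced FLAG peak, mesenchymal-state genes had 16%, HOX genes 7.69%, aminoacyl-tRNA synthetases 5.00% and cytosolic ribosomal proteins 4.55%, and the other two lists had none.

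No replication-dependent histone gene had a member (0 of 33, which allows a share of up to 9.09%). However, 29 of the 33 had an RCOR2-low region, where 27.2% of all protein-coding genes had one. As genes of other tissues, liver genes had 1 of 25 (4.00%), TF, on a region it shares with TOPBP1, and keratinocyte genes had 0 of 23, which allows up to 13.0%. These limits cover counting error only.

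**Figure D5:**
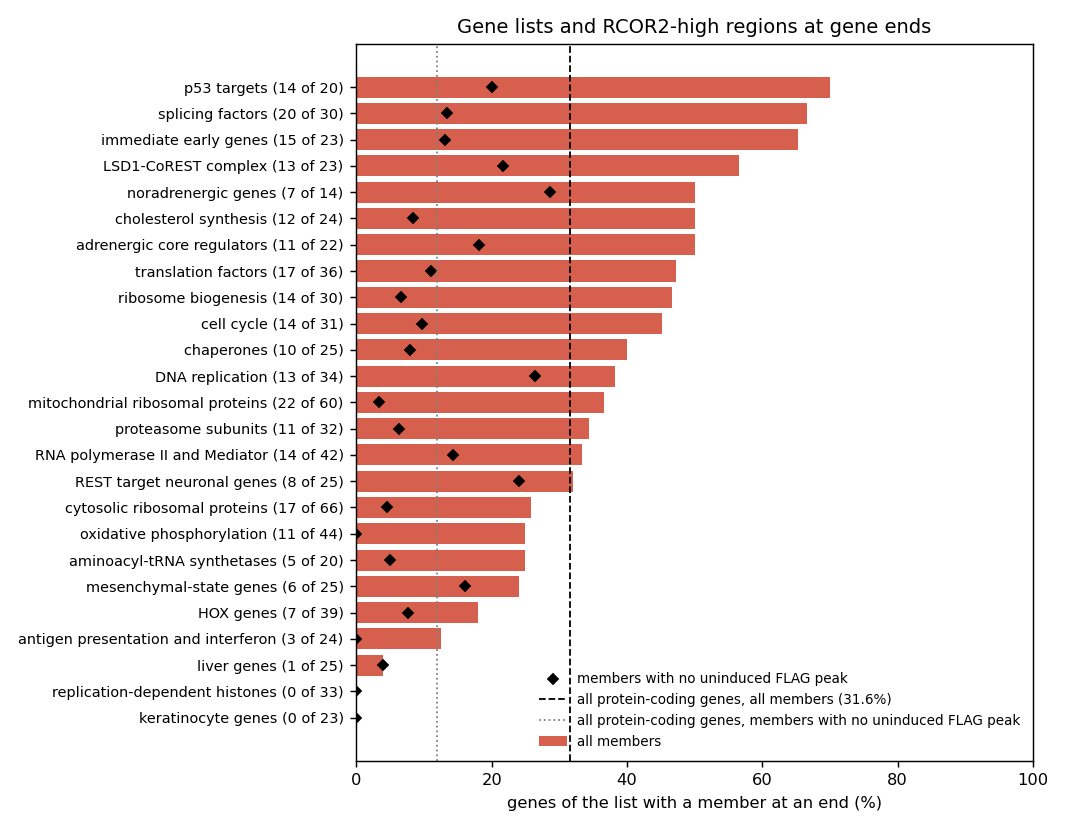
Share of the genes of 25 lists (y axis, with the number of genes that have a member and the number found) that have a member at an end (x axis, %), as bars for all members and diamonds for members with no uninduced FLAG peak. The dashed line is the 31.6% of all protein-coding genes and the dotted line the 11.9% for members with no uninduced FLAG peak, and p53 targets (70%) and splicing factors (66.7%) stand highest.

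Members were spread over all chromosomes, unevenly by gene. Of the genes on chromosome 17, 43.5% had a member, followed by 42.1% on chromosome 20 and 41.2% on chromosome 3. The lowest shares were 4.13% on the X chromosome (35 of 848 genes), 18.9% on chromosome 18 and 21.8% on chromosome 4. Kelly cells carry copy number changes that were not measured here, and their part in these shares was not tested. Chromosome 2, which holds the amplified MYCN, had 31.6%, equal to that of all genes.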

How the data were processed

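Chromatin bound by 4 proteins was mapped by ChIP-seq in 10 libraries, 2 per group, grouped by the labels' titles and treatments. Per the submitters' processing notes, the aligner was BWA 0.7.17 and the build GRCh38, and MACS2 and deepTools were used, with no versions given. How the control for peak calling was chosen, how duplicates were handled and how the RCOR2-high and RCOR2-low classes were defined: not given in the sources used here. Each deposited list holds the peaks of 1 library. Its fold enrichment (column 7) is a ratio that the authors' peak caller wrote, and its −log10 q-value (column 9), also as deposited by the authors, starts near a q-value of 0.05. The authors deposited positions only for the region lists, and their peak lists give summit positions. Names inside some peak lists differ in their replicate from the labels, whose numbers are used. The read depth is unknown, so the number of peaks stands for it.

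Peaks and regions on chromosomes 1 to 22 and X were used (Python 3.11.15, pandas 2.3.3, numpy 2.4.6). A region has a peak with an overlap of at least 1 bp. Genes are the 19974 protein-coding genes of the RefSeq table (GRCh38.p14), and the strand and start come from the RefSeq promoter table, which holds 15812 of them. No genome was used, so exon and intron positions are not given. Shares per library carry Wilson 95% intervals. The 7 planned tests are exact permutation or sign-flip tests over libraries (two-sided), with no adjustment since none can pass. The comparisons flagged for a closer look were added after the data were seen. The overlap code and tests were checked on simulated data. Alternatives were a 500 bp window, a 50% overlap, peaks above the median fold, equal numbers of top peaks, regions with no uninduced FLAG peak, chromosome 2 left out, each replicate left out and, added after the data were seen, the central 500 bp of regions, RCOR2-low regions with both induced peaks and starts only.

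Some genes that the rule takes are not reported here. Genes were named by the lower of the 2 percentile ranks of a member's induced fold: the 10 highest, the 4 lowest, up to 10 with a peak in all libraries, up to 10 with LSD1 in both libraries by LSD1 rank, up to 4 per list, all LSD1-CoREST and adrenergic genes, and the 4 nearest inside and outside the 2 kb limit. Members that lack an induced peak were named after their values were seen, as were ALB and KRT5. The members and lists were chosen with earlier results of these data known.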

Additional observations from a re-analysis of the deposited data

Results flagged for a closer look

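The members differed from RCOR2-low regions at gene ends in opposite directions for LSD1 and RCOR3. The LSD1 difference was -12.6 and -8.41 percentage points in its 2 libraries, and the RCOR3 difference was 5.30 and 26.5. The means differed by -26.4 percentage points (exact permutation test, 2 against 2, two-sided, p = 0.333, the smallest it allows). This comparison was chosen after the data were seen, for its opposite signs, so the p-value gives it no support. LSD1 was measured in another derivative of the line than RCOR3, so protein and derivative cannot be told apart. RCOR3 replicate 1 was -2.50 percentage points among regions with no uninduced FLAG peak.

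The directions were also opposite for LSD1 and the uninduced FLAG libraries. The uninduced FLAG differences were 39.97 and 19.1 percentage points, and the cells differed too. The means differed by -40.1 percentage points (exact permutation test, 2 against 2, two-sided, p = 0.333, the smallest it allows). It too was chosen after the data were seen, for its opposite signs, so the p-value gives no support. FLAG signal may also have entered the choice of class, which would fix the uninduced FLAG direction in advance. Groups of 2 libraries are too small to test a single library as standing apart.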

How the results depend on the processing

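The means of the 7 differences in shares kept their direction under each alternative run (9 to 13 per difference), and no test can pass with 2 libraries. LSD1 minus RCOR3 ran from -37.7 to -21.9 percentage points over the settings and from -45.2 to -28.8 with single replicates left out. With the replicate number as a block it was -37.0 (exact sign-flip test, p = 0.5). The labels do not say that a number marks a shared day or culture, and the correlation of the LSD1 and RCOR3 replicate differences over members was 0.03. Other pairs of proteins were not checked in this way. Against RCOR2-low regions at gene ends, leaving out a replicate gave -12.6 to -8.41 for LSD1, 5.30 to 26.5 for RCOR3 and 19.1 to 39.97 for uninduced FLAG. Against RCOR2-high regions away from gene ends it gave -4.62 to -3.73, -2.75 to -1.96 and 1.22 to 5.98. RCOR3 replicate 1 changed sign against RCOR2-low regions also with the central 500 bp of each region (-0.27) and against RCOR2-low regions with both induced peaks (-0.92). Uninduced FLAG replicate 2 turned from 1.22 to -0.97 against RCOR2-high regions away from gene ends with the central 500 bp (mean 1.29, exact sign-flip test, p = 1).

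Among members with no uninduced FLAG peak, 1998 regions and 2382 genes remained. A 500 bp window left 5099 members and 5924 genes, with 98.0% at a start. The median induced fold was 19.4 to 40.7 with a replicate left out. Of 75 list shares under alternatives, 18 left the Wilson interval of the list, all with members that lack an uninduced FLAG peak. That setting also took the share of all genes from 31.6% to 11.9%. No list share left its interval with the 500 bp window or with starts only. The depth behind each peak list is unknown, so an absent peak may lie under the limit of its library. Wider regions can meet more peaks.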

Other observations

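Finishes of genes without a start in the same region were rare among the members (96 with no end of unknown direction), but some had high induced folds. The region at the finish of SCAI (chr9:124940404-124941615) had induced folds of 36.1 and 94.2, that at ZNF771 (chr16:30417535-30418632) 32.6 and 82.9, that at NOC2L and SAMD11 (chr1:939065-943453) 50.3 and 69.6, and that at NPBWR2 and OPRL1 (chr20:64101922-64103302) 29.9 and 61.7. These 4 were the highest of the 96 by rank and were chosen after their values were seen. None had an LSD1 peak. Over the 96, LSD1 had a peak at 7.29% in replicate 1 and 8.33% in replicate 2, against 8.24% and 4.18% of members at a start.

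Ranks of LSD1 fold were better shared by the replicates than those of the other proteins in the members. The Spearman correlation was 0.68 over the 173 members with both LSD1 peaks, 0.39 for induced FLAG-RCOR2, 0.23 for RCOR1 and 0.19 for RCOR3. RCOR1 replicate 1 and RCOR3 replicate 1 shared 0.40 over 1868 members, above the value of either protein with its own second library. These are descriptions over regions of the same libraries, and only members with both peaks enter each value.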
